A study of Homo sapiens with 42 samples.

Results

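The host genes of 14 well known human microRNAs were followed in K562 cells, an erythroid leukaemia line driven by the BCR-ABL1 kinase fusion. The 7 genes were MIR17HG, MIR223HG, MIR22HG, MIR210HG, MIR155HG, DLEU2 and MIR181A1HG, out of 58243 gene rows in the 2 count tables, and they were taken from both tables by their Ensembl identifiers. The list was drawn up after changes in these libraries were known. MIR17HG and MIR223HG were chosen by their low measured values in polyadenylated RNA under JTE-607 for 1 h and in both RNA fractions under potassium chloride, so the values of the 7 genes in those comparisons are given as a description with no test. Nuclear RNA under JTE-607 was not used in the choice and is tested. The choice drew on the CTRL libraries of both fractions, and every tested comparison with CTRL uses them again. Tests of a fall of MIR17HG or MIR223HG against CTRL are therefore not independent of the choice. The cells were left untreated (CTRL) or given 1 µM imatinib (IM), an inhibitor of the ABL1 kinase, for 1, 6 or 18 h, 5 µM JTE-607 (JTE), which acts on CPSF73, the nuclease that cuts nascent transcripts at their 3′ end, for 1, 6 or 18 h, or 110 mM potassium chloride (KCl), a hyperosmotic stress, for 1 or 3 h. Polyadenylated RNA was sequenced in all 9 of these groups (27 libraries). Nuclear RNA depleted of ribosomal RNA was sequenced in 5 of them, CTRL, IM 1 h, IM 18 h, JTE 1 h and KCl 1 h (15 libraries). Each group held 3 libraries labelled as biological replicates of 1 cell line, and all treatments of a fraction were set against the same 3 CTRL libraries.

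A host gene is transcribed into a long primary transcript in which one or more hairpins are folded. The Microprocessor complex of DROSHA and DGCR8 cuts the hairpins out in the nucleus, exportin 5 carries them to the cytoplasm, DICER1 trims them and an Argonaute protein takes up one strand. What remains of the host transcript is a spliced noncoding RNA or is degraded. The counts described here are read pairs over host gene exons. They measure the host transcript before or beside the cut, and they do not measure the mature microRNAs.

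The mature strands carried by the 7 hosts are shown because they are the products by which these genes are known and because several share a seed, the bases 2 to 8 with which a microRNA pairs with its targets. The sequences are from RefSeq on GRCh38.p14, written 5′ to 3′ with the seed in capitals.
hsa-miR-17-5p: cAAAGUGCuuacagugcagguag
hsa-miR-20a-5p: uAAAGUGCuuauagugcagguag
hsa-miR-18a-5p: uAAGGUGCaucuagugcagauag
hsa-miR-19a-3p: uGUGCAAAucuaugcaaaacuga
hsa-miR-19b-3p: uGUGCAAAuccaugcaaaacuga
hsa-miR-92a-3p: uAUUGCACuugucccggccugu
hsa-miR-223-3p: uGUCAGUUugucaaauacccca
hsa-miR-22-3p: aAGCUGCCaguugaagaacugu
hsa-miR-210-3p: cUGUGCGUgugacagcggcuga
hsa-miR-155-5p: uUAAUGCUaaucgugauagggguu
hsa-miR-15a-5p: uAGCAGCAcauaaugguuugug
hsa-miR-16-5p: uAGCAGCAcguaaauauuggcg
hsa-miR-181a-5p: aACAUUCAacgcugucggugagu
hsa-miR-181b-5p: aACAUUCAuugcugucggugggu

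The first 6 strands come from MIR17HG (ENSG00000215417), which lies on the + strand of chr13:91347820-91354579 and holds all 6 hairpins in an exon. Its strands make 4 seed groups, with AAAGUGC shared by miR-17 and miR-20a and GUGCAAA shared by miR-19a and miR-19b. MIR223HG (ENSG00000274536, + strand of chrX:66015461-66020422), MIR22HG (ENSG00000186594, − strand of chr17:1711493-1717174) and MIR155HG (ENSG00000234883, + strand of chr21:25561909-25575168) also hold their hairpin in an exon. The hairpins lie in an intron of MIR210HG (ENSG00000247095, − strand of chr11:565660-568457), of DLEU2 (ENSG00000231607, − strand of chr13:49982552-50125720), whose miR-15a and miR-16 share the seed AGCAGCA, and of MIR181A1HG (ENSG00000229989, − strand of chr1:198807493-198937429), whose miR-181a and miR-181b share ACAUUCA. The 9 hairpin genes that lie in host exons had a count of 0 in every library. Pairs that fall on both a hairpin and its host exon are left unassigned when counting is per gene.

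Library totals ran from 16439848 to 62953314 assigned pairs in polyadenylated RNA and from 16175394 to 25103205 in nuclear RNA, and only KCl 1 h replicates 2 and 3 (62953314 and 42474454 pairs) stood well above the other polyadenylated libraries. The numbers of CTRL replicates 1 and 2 in polyadenylated RNA are uncertain, since the deposited columns and the list of library sizes in the study's supplement have them in opposite order. They are named here as deposited, and fits without a replicate block do not use the numbers. All 7 erythroid markers of K562 were detected at 1 CPM (count per 1000000 assigned pairs) or more, while 4 of 10 markers of other cell types reached that level, EPCAM being the highest of them at 74.8 to 107 CPM in polyadenylated RNA. The summed level of the erythroid markers moved with imatinib, from 1959 to 2996 CPM in CTRL to 6029 to 8096 CPM after 18 h in polyadenylated RNA, and from 2627 to 3586 CPM to 6692 to 7424 CPM in nuclear RNA. Its part in the changes of the host genes after 18 h of imatinib was not tested.

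In untreated cells the 7 hosts covered the whole span from abundant to not detected. Per kilobase of exon, MIR223HG (22.7 ± 14.3 CPM per kb, SD, n = 3) and MIR17HG (16.3 ± 2.92) led in polyadenylated RNA, and their libraries overlapped. MIR22HG (2.58 ± 0.771) and DLEU2 (1.499 ± 0.273) followed with overlapping libraries, then MIR210HG at 0.294 ± 0.112, while MIR155HG and MIR181A1HG had no counts. In nuclear RNA the order was the same but the leading genes separated: MIR223HG had 82.4 ± 14.9 CPM per kb, MIR17HG 38.9 ± 4.32, MIR22HG 2.98 ± 0.409, DLEU2 0.966 ± 0.159, MIR210HG 0.716 ± 0.0961 and MIR155HG 0.173 ± 0.0184. Only DLEU2 and MIR210HG overlapped among neighbours in that order. By CPM per kb, 97.8% of the genes tested in nuclear RNA lay below MIR223HG and 94.7% below MIR17HG. The level in CPM was 3.64 times as high in nuclear as in polyadenylated RNA for MIR223HG, 2.43 times for MIR210HG and 2.38 times for MIR17HG, against a median of 1.29 over 16651 genes. DLEU2 stood on the other side of that median at 0.645. CPM is relative to the library's own total, so this ratio says nothing of absolute amounts per cell.

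Of the 7 genes, 5 passed the filter on low counts in polyadenylated RNA and 6 in nuclear RNA. MIR155HG failed it in polyadenylated RNA and MIR181A1HG in both. A gene was called changed where edgeR's quasi-likelihood test gave a Benjamini-Hochberg adjusted p under 0.05 over all genes tested and the log2 fold change passed 0.6 in either direction. After 18 h of imatinib MIR17HG, MIR223HG and MIR22HG fell and MIR210HG rose, in both RNA fractions: 4 of the 5 hosts tested were called in polyadenylated RNA, where 30.5% of all genes were called, and 4 of 6 in nuclear RNA, where 32.6% were called. After 6 h MIR17HG fell and MIR210HG rose (2 of 5 hosts, with 9.94% of all genes called). After 1 h none was called in polyadenylated RNA (0 of 5, with 0.0166% of all genes called) or in nuclear RNA (0 of 6, with 0.0456% called), and none had an unadjusted p under 0.05 or was called by DESeq2 in either fraction. A fit with the replicate number as a block called 69 genes in nuclear RNA at 1 h instead of 10, and no host. Under JTE-607, 1 of 5 hosts was called at 6 h (13.2% of all genes) and 0 of 5 at 18 h (5.39% of all genes), where 1 host had an unadjusted p under 0.05 and 1 was called by DESeq2, and MIR17HG was called in nuclear RNA at 1 h (8.52% of all genes). MIR155HG had a call there too, which is set aside because the gene passed the filter only through that group. In bulk RNA a lower level in each cell and fewer cells that express the gene cannot be told apart.

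MIR17HG, the host of the miR-17-92 cluster, which is amplified in lymphomas and is a known target of MYC, had CTRL levels of 68.2, 48.3 and 54.3 CPM in polyadenylated RNA. The 1 h imatinib libraries stood at 63.0, 84.0 and 47.5 CPM and overlapped with CTRL. At 6 h of imatinib the values were 35.6, 24.2 and 34.1 CPM, and at 18 h they were 20.4, 35.2 and 28.2 CPM. All 6 of these later libraries lay below the lowest CTRL library, and the 2 time points overlapped each other. The log2 fold change against CTRL was -0.92 (SE 0.29, adjusted p = 0.0341, edgeR) at 6 h and -1.06 (SE 0.29, adjusted p = 0.00543, edgeR) at 18 h, and the direct comparison of 18 h with 6 h gave -0.14 (SE 0.29, adjusted p = 0.8198, edgeR). The call at 6 h was lost, with its direction kept, without CTRL replicate 1 (adjusted p = 0.144), CTRL replicate 3 (0.0587), or either of replicates 2 (0.121) and 3 (0.0685) of IM 6 h.

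In nuclear RNA MIR17HG had 128, 126 and 153 CPM in CTRL and 55.4, 64.8 and 56.9 CPM after 18 h of imatinib. The groups did not overlap, and the log2 fold change of -1.26 (SE 0.12, adjusted p = 6.19e-08, edgeR) was the most precisely measured among the hosts in that comparison. The nuclear libraries at 1 h of imatinib (113, 129 and 125 CPM) overlapped with CTRL.

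Under JTE-607 MIR17HG was lowest in polyadenylated RNA at 1 h, the time whose low value helped choose the gene. The 1 h level was not tested against 6 h. At 1 h it had 14.6, 14.1 and 5.57 CPM in polyadenylated RNA, all far below CTRL, with a fitted log2 fold change of -2.28 (a comparison that helped choose the gene, in which 0.851% of all genes were called). At 6 h the libraries held 23.8, 31.9 and 14.6 CPM, and at 18 h 38.6, 30.4 and 29.6 CPM, still below every CTRL library. The fall was called at 6 h (log2 fold change -1.21, SE 0.30, adjusted p = 0.0051, edgeR) and not at 18 h (-0.87, SE 0.29, adjusted p = 0.0659, edgeR). The 18 h value was called by DESeq2 (adjusted p = 0.0367), in a fit of only the 2 groups (0.00626), without the filter on low counts (3.52e-06) and with the replicate number as a block (0.0301, or 0.0241 with CTRL replicates 1 and 2 exchanged). The later level against the earlier one gave 0.34 (SE 0.29, adjusted p = 0.442, edgeR), which is within the spread of the libraries. In nuclear RNA at 1 h of JTE-607 the fitted fall was smaller, to 77.2, 95.5 and 86.6 CPM, with no overlap with CTRL (log2 fold change -0.65, SE 0.12, adjusted p = 0.00091, edgeR). That value is close to the fold threshold and did not pass it without CTRL replicate 3 (-0.56) or JTE 1 h replicate 1 (-0.55). The difference between the fractions at JTE 1 h was not tested, since the polyadenylated RNA helped choose the gene.

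Potassium chloride gave the lowest MIR17HG levels in polyadenylated RNA, 5.14, 6.12 and 5.72 CPM at 1 h and 7.01, 8.40 and 6.47 CPM at 3 h. The fitted log2 fold changes, again from comparisons that helped choose the gene, were -3.30 and -2.92, in contrasts where 5.45% and 11.9% of all genes were called. Nuclear RNA at 1 h of potassium chloride kept 109, 96.2 and 82.6 CPM, all below CTRL, a fitted log2 fold change of -0.48 in a contrast where 23.8% of all genes were called.

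MIR223HG carries miR-223, known as a microRNA of myeloid cells. Its polyadenylated RNA varied widely between replicates, with 25.5, 71.1 and 26.8 CPM in CTRL, 93.1, 23.9 and 9.74 CPM at 1 h of imatinib and 53.6, 0.89 and 8.36 CPM at 6 h. With CTRL replicates 1 and 2 exchanged, replicate 1 is the highest library in each of these groups. At 18 h of imatinib the 3 libraries came together at 4.11, 4.51 and 5.83 CPM, below every CTRL library. The log2 fold change was -3.13 (SE 1.05, adjusted p = 0.0214, edgeR). The call was lost, with its direction kept, without CTRL replicate 2 (adjusted p = 0.0816) and without IM 18 h replicate 1 (0.0727), replicate 2 (0.0634) or replicate 3 (0.0514). The 6 h value of -1.03 (SE 0.94, adjusted p = 0.511, edgeR) rested on replicate 1, and it was -3.25 (adjusted p = 0.047) without that library.

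The nuclear values of MIR223HG were tighter. CTRL held 176, 151 and 122 CPM and IM 18 h held 6.66, 29.2 and 20.2 CPM, with a log2 fold change of -3.08 (SE 0.56, adjusted p = 0.000924, edgeR). Only 92 of the 21929 genes tested in nuclear RNA had a lower log2 fold change in that comparison. At 1 h of imatinib (109, 161 and 67.9 CPM) and of JTE-607 (112, 142 and 65.0 CPM) the libraries overlapped with CTRL, with log2 fold changes of -0.37 (SE 0.50, adjusted p = 0.917, edgeR) and -0.50 (SE 0.50, adjusted p = 0.615, edgeR).

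MIR223HG in polyadenylated RNA under JTE-607 had 53.0, 12.7 and 6.82 CPM at 1 h, with a fitted log2 fold change of -0.74 that ran from -2.01 to -0.075 when 1 library was left out (no test). It had 14.7, 7.39 and 3.89 CPM at 6 h and 22.4, 15.6 and 24.1 CPM at 18 h. The 6 h and 18 h libraries all lay below CTRL, but neither fold change was called (6 h -2.18, SE 1.00, adjusted p = 0.148, edgeR, and 18 h -1.06, SE 0.95, adjusted p = 0.567, edgeR). At 6 h the fit with a replicate block called it (-2.55, adjusted p = 0.0409), also with CTRL replicates 1 and 2 exchanged (-2.17, adjusted p = 0.0338), and so did a fit of the 2 groups alone (adjusted p = 0.0317). Under potassium chloride polyadenylated RNA had 1.66, 0.48 and 0.82 CPM at 1 h and 0.72, 0.49 and 1.43 CPM at 3 h. In nuclear RNA at 1 h the libraries held 13.1, 18.6 and 7.16 CPM, all far below CTRL. The fitted log2 fold changes of -5.55, -5.52 and -3.51 helped choose the gene.

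**Figure D1:**
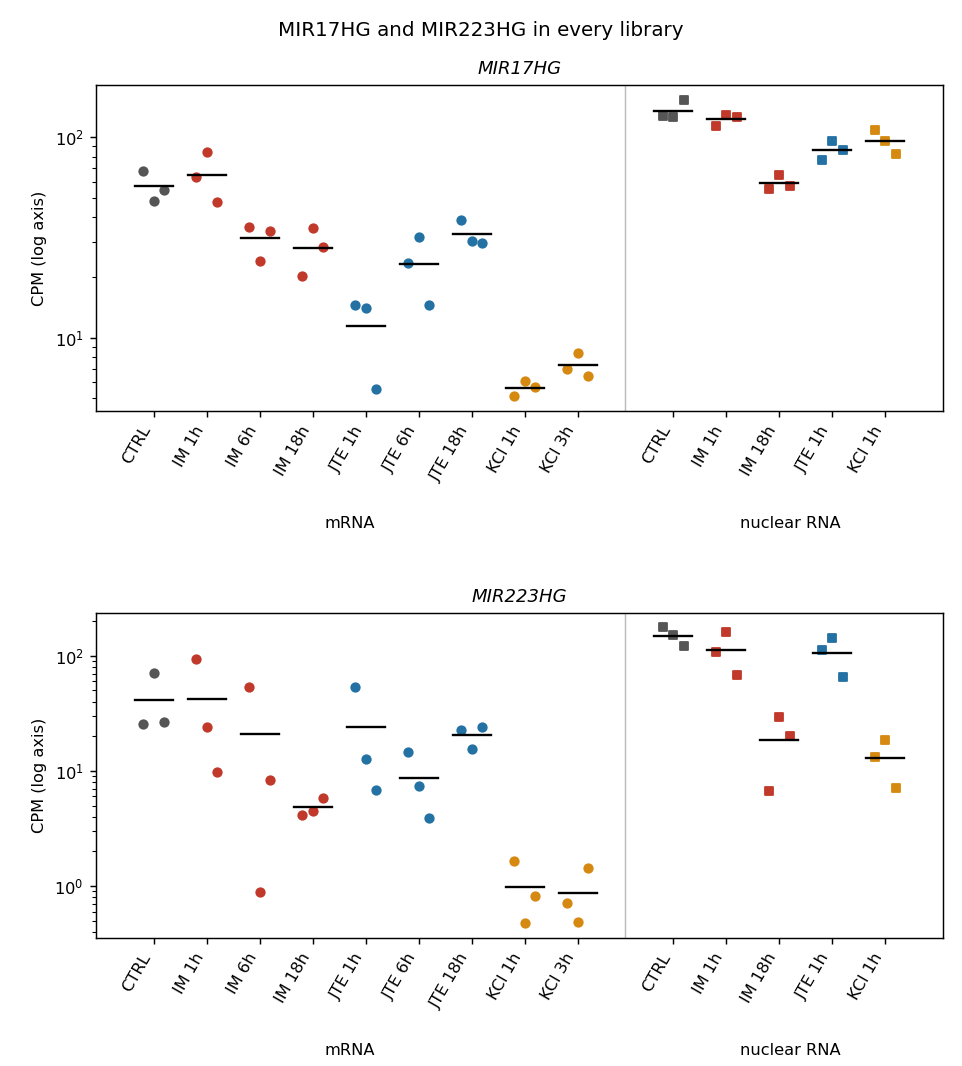
MIR17HG and MIR223HG in CPM (log axis) in every library, by treatment group, with circles for polyadenylated RNA, squares for nuclear RNA and a line at each group mean. After 18 h of imatinib every library of both genes lies below the CTRL libraries of its fraction, and MIR17HG after 1 h of potassium chloride stands near 6 CPM in polyadenylated RNA but at 82.6 to 109 CPM in nuclear RNA.

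MIR22HG hosts miR-22, which is expressed in many tissues. It had 8.29, 5.15 and 9.63 CPM in CTRL and 2.63, 4.40 and 2.94 CPM after 18 h of imatinib in polyadenylated RNA, a fall with no overlap (log2 fold change -1.24, SE 0.36, adjusted p = 0.00809, edgeR). In nuclear RNA it fell from 10.3, 8.17 and 8.23 CPM to 4.33, 4.03 and 5.44 CPM (-1.03, SE 0.20, adjusted p = 0.000279, edgeR). Earlier imatinib libraries overlapped with CTRL, at 4.44 to 8.02 CPM at 6 h (-0.39, SE 0.35, adjusted p = 0.503, edgeR). JTE-607 left it at 6.61 to 10.3 CPM at 18 h, and the imatinib level at that time was lower than the JTE-607 level (log2 difference -1.24, SE 0.36, adjusted p = 0.00843, edgeR). MIR22HG was the only host among the 5 above the filter whose polyadenylated RNA stood wholly above CTRL after 3 h of potassium chloride, with 10.7, 11.2 and 16.3 CPM and a fitted log2 fold change of 0.76.

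MIR210HG hosts miR-210, known as a microRNA of the response to low oxygen, and it was the host that rose under imatinib. Its polyadenylated RNA was low in CTRL, at 0.764, 0.893 and 0.392 CPM from 14, 17 and 7 counts. It stood at 1.95, 2.41 and 1.88 CPM after 6 h of imatinib and at 3.67, 2.66 and 2.04 CPM after 18 h, from 67, 49 and 36 counts. No library of these groups overlapped with CTRL, and the log2 fold changes were 1.53 (SE 0.37, adjusted p = 0.00614, edgeR) and 1.98 (SE 0.37, adjusted p = 0.00014, edgeR). The 6 h call was lost without CTRL replicate 3 (1.22, adjusted p = 0.0536). Nuclear RNA gave the same direction at a higher count, from 1.90, 1.62 and 1.46 CPM in CTRL to 5.51, 4.23 and 5.19 CPM at 18 h (1.51, SE 0.23, adjusted p = 2.15e-05, edgeR). Under JTE-607 the gene had 0.321 to 0.530 CPM at 6 h and 0.442 to 1.22 CPM at 18 h, so imatinib stood above JTE-607 at 6 h (log2 difference 2.16, SE 0.40, adjusted p = 0.00018, edgeR) and at 18 h (1.71, SE 0.36, adjusted p = 0.000521, edgeR). Under potassium chloride it stood at 0.207 to 0.415 CPM at 1 h, overlapping with the lowest CTRL library, and at 0.178 to 0.384 CPM at 3 h, below all of them (fitted log2 fold changes of -1.35 and -1.22, no test), and to 0.571, 1.24 and 0.877 CPM in nuclear RNA (-0.86).

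DLEU2, the host of miR-15a and miR-16 in a region often deleted in chronic lymphocytic leukaemia, was called against CTRL in none of the tested comparisons. Its polyadenylated RNA had 9.0001, 7.72 and 6.22 CPM in CTRL and 13.1, 9.39 and 13.3 CPM after 6 h of imatinib, all above CTRL, with a log2 fold change of 0.58 (SE 0.31, adjusted p = 0.215, edgeR). It had 6.53, 6.62 and 4.70 CPM after 18 h, all below the 6 h libraries (18 h against 6 h -0.98, SE 0.31, adjusted p = 0.0536, edgeR). That step was called by DESeq2 (adjusted p = 0.0247), without the filter (0.000159), with the replicate block (0.0163) and in a fit of the 2 groups (0.0232). At 6 h imatinib stood above JTE-607, whose libraries held 8.66, 4.12 and 3.94 CPM (log2 difference 0.97, SE 0.31, adjusted p = 0.0186, edgeR). The call was lost without IM 6 h replicate 1 (adjusted p = 0.0584) or 3 (0.0643), or JTE 6 h replicate 2 (0.0877) or 3 (0.101). Nuclear levels stayed between 3.90 and 5.98 CPM in all 15 libraries. DLEU2 has 4 introns of more than 10000 bases, the longest that the alignment allowed, among 14, and shares 919 exon bases with other genes, so pairs over those introns and on shared bases may be missing from its counts.

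MIR155HG, the host of miR-155 that is high in activated B cells and some lymphomas, was near the detection limit. Its polyadenylated RNA gave 26 counts over all 27 libraries, 15 of which had none, CTRL included, which allows up to 3 counts per library. In nuclear RNA the CTRL libraries held 7, 6 and 5 counts and the JTE 1 h libraries 33, 13 and 21 counts, or 0.277 ± 0.0295 and 0.951 ± 0.397 CPM (SD, n = 3). The fold change was called (log2 1.75, SE 0.44, adjusted p = 0.0132, edgeR), but the gene passed the filter of 0.478 CPM in 3 libraries only through the JTE 1 h group, so that it had to differ there, and the value is a description. The call was lost without CTRL replicate 2 (adjusted p = 0.052) or JTE 1 h replicate 1 (0.0973). KCl 1 h libraries held 6, 9 and 21 counts, which in CPM lay above the CTRL libraries, the lowest of them by less than 1 count.

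MIR181A1HG, the host of miR-181a and miR-181b known in lymphoid cells, had a count of 0 in all 27 polyadenylated libraries and 3 counts in total over the 15 nuclear libraries. A count of 0 allows up to 0.182 CPM in the shallowest polyadenylated library and 0.185 CPM in the shallowest nuclear one, by counting error alone. All 3 of its introns are longer than 10000 bases, so pairs that join its exons were outside the alignment limit.

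**Figure D2:**
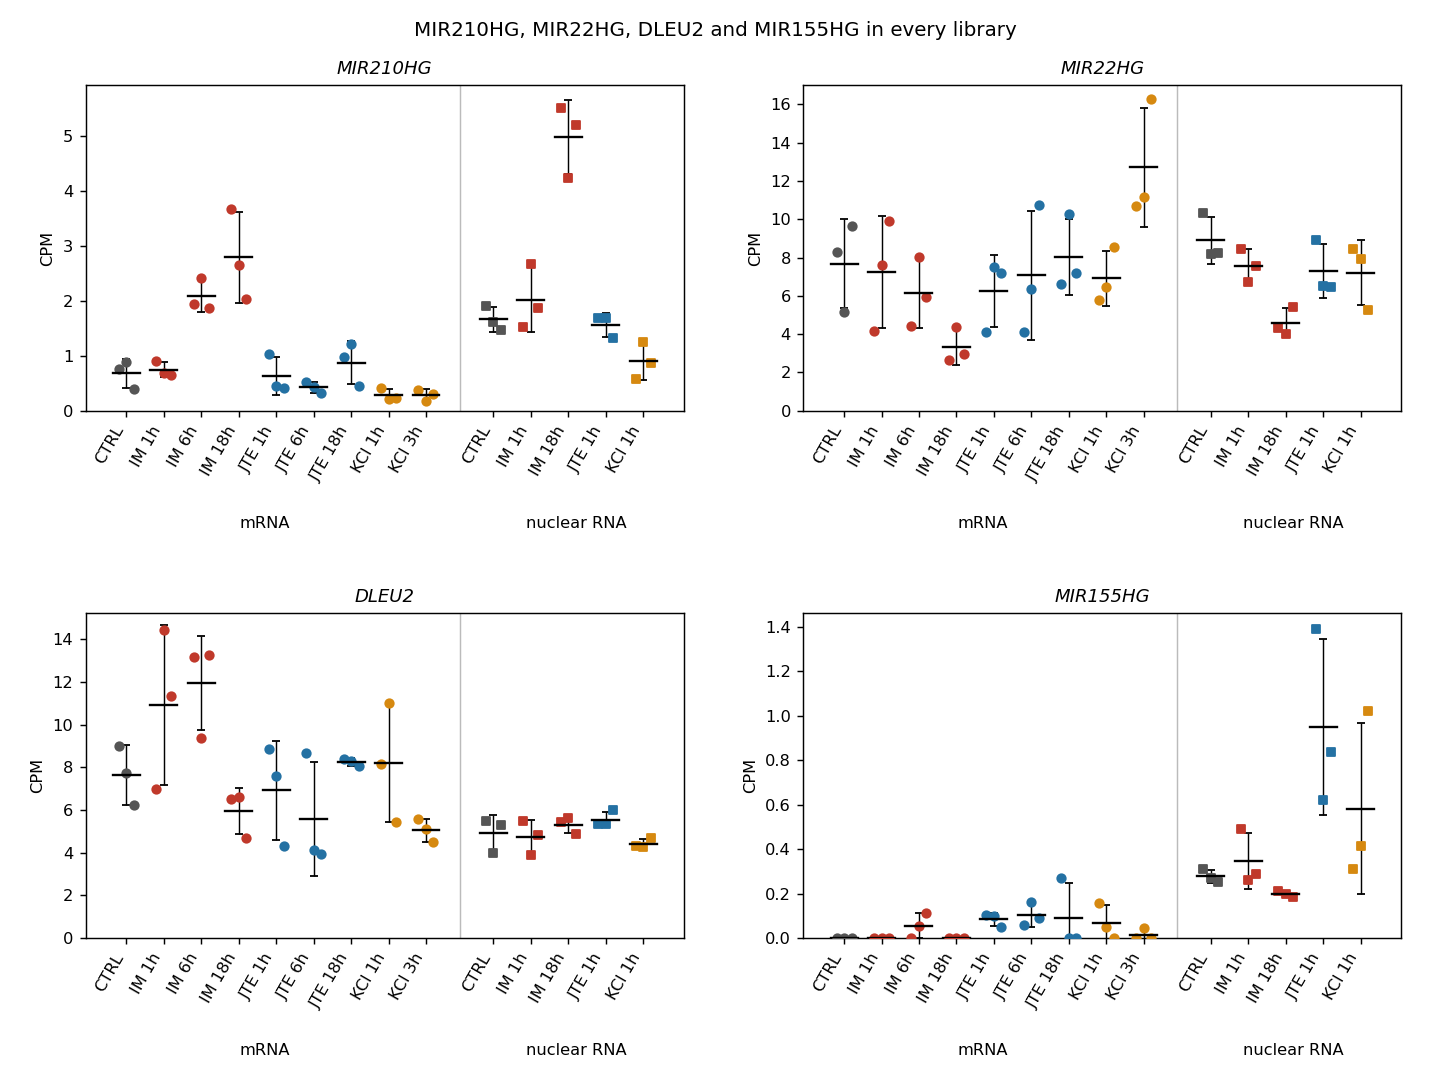
MIR22HG, MIR210HG, DLEU2 and MIR155HG in CPM in every library, by group, with circles for polyadenylated RNA, squares for nuclear RNA and the group mean and SD (bars stop at 0). MIR210HG is highest at 18 h of imatinib in both fractions (2.04 to 3.67 and 4.23 to 5.51 CPM), while DLEU2 stays between 3.90 and 5.98 CPM in nuclear RNA.

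The nuclear and polyadenylated responses to imatinib were set against each other for the 5 hosts tested in both. None was called at 18 h, where the log2 differences between the responses, nuclear minus polyadenylated, ran from -0.42 (SE 0.41) for MIR210HG to 0.50 (SE 0.28) for DLEU2, each with an adjusted p of 0.9999 in edgeR's interaction test. At 1 h none was called either, with an adjusted p of 1 each. No host had an unadjusted p under 0.05 or was called by DESeq2 at either time, and over all genes 0% were called at 1 h and 0.0901% at 18 h, so this test called almost nothing anywhere.

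Direct comparisons in polyadenylated RNA placed the hosts between times and drugs. Imatinib at 18 h against 6 h called 0 of 5 hosts by edgeR (2 with an unadjusted p under 0.05, 1 by DESeq2, 4.41% of all genes called). JTE-607 at 18 h against 6 h called 0 of 5 (1 with an unadjusted p under 0.05, 0 by DESeq2, 13.4% of all genes). Imatinib stood above JTE-607 for MIR210HG and DLEU2 at 6 h (2 of 5, 23.8% of all genes), and above it for MIR210HG and below it for MIR22HG at 18 h (2 of 5, 30.3% of all genes). MIR17HG fell under both drugs, and its levels under them differed by 0.29 (SE 0.29, adjusted p = 0.481, edgeR) at 6 h and by -0.20 (SE 0.29, adjusted p = 0.615, edgeR) at 18 h.

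**Figure D3:**
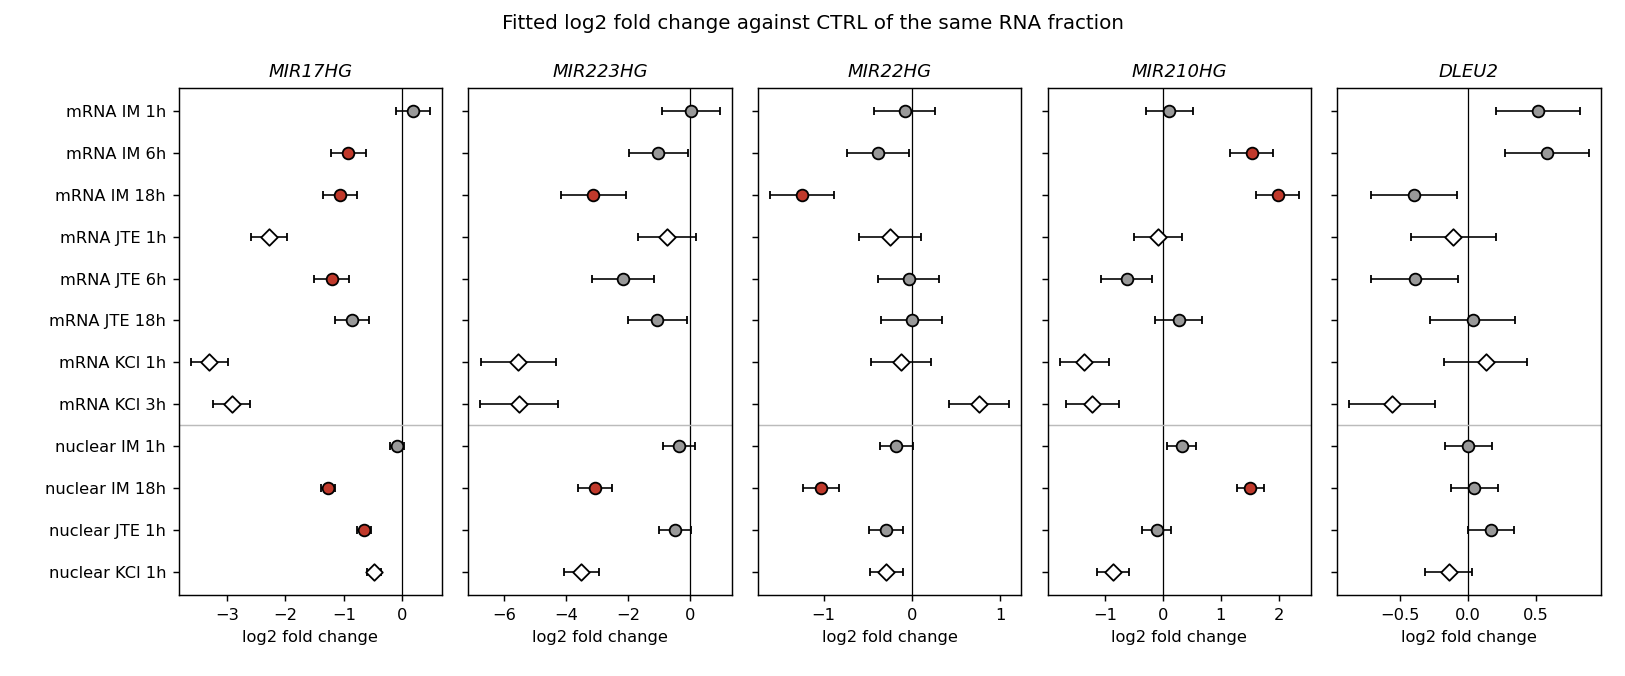
Fitted log2 fold changes of the hosts against CTRL by contrast, with bars of 1 SE. Red points were called, grey points were tested and not called, and open diamonds are contrasts that chose the genes and carry no test. MIR210HG lies above 0 at 6 h and 18 h of imatinib, while MIR17HG, MIR223HG and MIR22HG lie below 0 at 18 h in both fractions.

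The other host genes named after a microRNA were counted next: 77 genes whose symbol starts with MIR and ends with HG, of which 25 were tested in polyadenylated RNA and 37 in nuclear RNA. Unlike for MIR155HG, genes that may have passed the filter only through the group where they were high were not taken out of these counts. After 18 h of imatinib 3 rose and 4 fell in polyadenylated RNA (28% of those tested, median log2 fold change 0.23, against 0.038 over all genes), and 5 rose and 6 fell in nuclear RNA (29.7%, median 0.15 against 0 over all genes). These shares lie near the background given above. MIR3936HG rose from 1.75 ± 0.628 CPM in CTRL to 3.62 ± 0.759 at 6 h (log2 fold change 0.99, SE 0.27, adjusted p = 0.0135, edgeR) and 5.76 ± 0.489 at 18 h (1.68, SE 0.27, adjusted p = 2.28e-05, edgeR). MIR193BHG, the host of miR-193b, fell from 1.63 ± 0.104 CPM to 0.750 ± 0.222 at 6 h (-1.16, adjusted p = 0.0178, edgeR) and 0.407 ± 0.230 at 18 h (-2.03, adjusted p = 9.63e-05, edgeR). Both moved the same way in nuclear RNA at 18 h, by 1.34 for MIR3936HG and -2.54 for MIR193BHG. MIR3681HG also rose in polyadenylated RNA at 18 h (0.63), and in nuclear RNA MIR222HG fell (-2.47) and MIR202HG rose (3.03, from at most 4 counts in a CTRL library). The 6 h call of MIR3936HG was lost without CTRL replicate 1 (adjusted p = 0.0514) or 2 (0.0831), without IM 6 h replicate 3 (0.0827) or in a fit of the 2 groups (0.0593), that of MIR193BHG without CTRL replicate 3 (0.0501) or IM 6 h replicate 3 (0.0901), and MIR3681HG fell under the fold threshold without CTRL replicate 1 (0.58) and was not called without CTRL replicate 2 (0.50, adjusted p = 0.0775) or without the filter (0.55). At 6 h 1 of the 25 rose and 2 fell (12%, beside 9.94% of all genes). At 1 h none of this group was called in either fraction by edgeR. In polyadenylated RNA 1 had an unadjusted p under 0.05 and 0 were called by DESeq2, and in nuclear RNA 5 and 1.

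Under JTE-607 the other host genes gave 0 calls at 1 h in polyadenylated RNA (4 with an unadjusted p under 0.05, 0 by DESeq2, 0.851% of all genes called), 1 rise and 1 fall at 6 h and the same numbers at 18 h (8% of the list at each time, beside 13.2% and 5.39% of all genes), and 2 rises and 3 falls in nuclear RNA at 1 h (13.5%, beside 8.52%). MIR600HG rose from 26.4 ± 3.995 CPM to 45.7 ± 6.59 at 6 h (log2 fold change 0.87, adjusted p = 3.06e-05, edgeR) and 44.8 ± 7.57 at 18 h (0.69, adjusted p = 0.0012, edgeR). MIR1915HG fell from 1.78 ± 0.891 CPM to 0.289 ± 0.126 and 0.579 ± 0.168 (-2.50 and -1.67). In nuclear RNA MIRLET7IHG, a host of the let-7 family, rose from 5.39 ± 1.11 to 17.7 ± 1.34 CPM (1.72, adjusted p = 2.69e-06, edgeR), MIR194-2HG rose (3.00, from at most 8 counts in a CTRL library), and MIR9-1HG (-0.93) and MIR142HG (-0.63) fell. The 18 h call of MIR1915HG was lost without any of 5 libraries (CTRL replicates 2 and 3 and each JTE 18 h replicate, adjusted p from 0.0527 to 0.129), MIR600HG at 18 h was under the fold threshold without JTE 18 h replicate 3 (0.58), and nuclear MIR142HG was not called without CTRL replicate 3 (-0.49) or was just under the fold threshold without JTE 1 h replicate 1 (-0.60) or 2 (-0.59).

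Potassium chloride gave 5 falls and no rise among the 25 tested at 1 h (20%, beside 5.45% of all genes, median log2 fold change -0.50 against 0.0064) and 7 falls and 2 rises at 3 h (36%, beside 11.9%, median -0.29 against 0.024). MIR142HG, the host of the blood cell microRNA miR-142, fell from 9.43 ± 3.59 CPM to 1.51 ± 0.431 at 1 h (-2.56, adjusted p = 0.000884, edgeR) and 1.64 ± 1.23 at 3 h (-2.45, adjusted p = 0.000751, edgeR), and from 59.4 ± 9.87 to 14.9 ± 3.51 CPM in nuclear RNA (-1.98, adjusted p = 5.79e-09, edgeR). MIR503HG fell at both times (-1.77 and -2.30), while MIR9-1HG (1.81) and MIR23AHG (1.40) rose at 3 h. In nuclear RNA 6 of 37 rose and 8 fell (37.8%, beside 23.8% of all genes). MIR122HG had a count of 0 in every CTRL library and 14 to 31 counts under potassium chloride, at least 6.85-fold higher against a floor of 3 counts per library. It is counted among the 6 rises, although no CTRL library reached the filter's 0.478 CPM, and which groups let it pass was not examined. MIRLET7IHG rose (1.58) and MIR3677HG fell (-1.63). DESeq2 did not call MIR122HG (adjusted p = 0.324), and a fit of the 2 groups did not call MIR503HG at 1 h (adjusted p = 0.062).

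The machinery that turns host transcripts into microRNAs was read from a list of 27 genes, all tested in both fractions. After 18 h of imatinib 4 rose and 7 fell in polyadenylated RNA (40.7% of the list, beside 30.5% of all genes, with a median log2 fold change of -0.21 against 0.038), and 3 rose and 6 fell in nuclear RNA (33.3%, close to the 32.6% of all genes, median -0.30 against 0). LIN28A and LIN28B, which bind let-7 precursors and block their processing, fell from 12.2 ± 0.948 to 3.23 ± 0.713 CPM (-1.95, adjusted p = 2.36e-07, edgeR) and from 222 ± 35.4 to 104 ± 11.5 CPM (-1.13, adjusted p = 6.12e-05, edgeR). XPO5, which encodes exportin 5, fell from 374 ± 8.44 to 189 ± 21.9 CPM (-1.02, adjusted p = 5.68e-09, edgeR). RAN, the GTPase that exportin 5 uses (-0.67), the Microprocessor cofactors DDX5 (-0.71) and ERH (-0.60), and SRRT, which links capped RNA to processing (-0.82), fell by less. AGO4, an Argonaute protein, rose from 28.7 ± 6.61 to 79.0 ± 13.4 CPM (1.43, adjusted p = 3.21e-05, edgeR), together with the Argonaute partners TNRC6B (0.78) and TNRC6C (0.66) and with ZSWIM8, a ubiquitin ligase adaptor in microRNA decay (0.73). In nuclear RNA the same genes were called in the same direction, apart from SRRT and TNRC6C, which were not called there. DROSHA and DGCR8, which make up the Microprocessor complex, and DICER1 were not called in either fraction. Several calls lie close to the fold threshold and fell under it when 1 library was left out: ERH without CTRL replicate 3 or IM 18 h replicate 1 and in nuclear RNA without CTRL replicate 1 or 3, ZSWIM8 without IM 18 h replicate 1 and in nuclear RNA without replicate 3 (0.47), and nuclear DDX5 without CTRL replicate 1 (-0.45) or IM 18 h replicate 3 (-0.57).

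At 6 h of imatinib AGO4 rose (0.98) and LIN28A (-0.95) and LIN28B (-0.75) fell (11.1% of the 27 genes, beside 9.94% of all genes). At 1 h of imatinib 0 were called in either fraction, and none had an unadjusted p under 0.05 or was called by DESeq2. JTE-607 called 0 at 1, 6 and 18 h in polyadenylated RNA (1, 7 and 6 with an unadjusted p under 0.05) and 0 at 1 h in nuclear RNA (1 with an unadjusted p under 0.05), and DESeq2 called 0 in all 4 of these comparisons. Under potassium chloride 0 were called at 1 h in polyadenylated RNA (5 with an unadjusted p under 0.05, 0 by DESeq2). DGCR8, the RNA-binding partner of DROSHA, fell at 3 h from 149 ± 30.4 to 78.9 ± 4.57 CPM (-0.88), and fell in nuclear RNA at 1 h from 252 ± 25.7 to 163 ± 17.9 CPM (-0.61). TNRC6B (-0.68, polyadenylated RNA at 3 h) and DDX17 (-0.76, nuclear RNA) also fell, and TNRC6C rose in nuclear RNA (0.64). LIN28B at 6 h lost its call when CTRL replicate 1 was left out (adjusted p = 0.0537), and likewise for replicate 3 of IM 6 h (0.0571). In nuclear RNA under potassium chloride DGCR8 fell under the fold threshold without CTRL replicate 3 (-0.55) or KCl 1 h replicate 1 (-0.54), and TNRC6C without CTRL replicate 1 (0.51) or KCl 1 h replicate 3 (0.49).

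**Figure D4:**
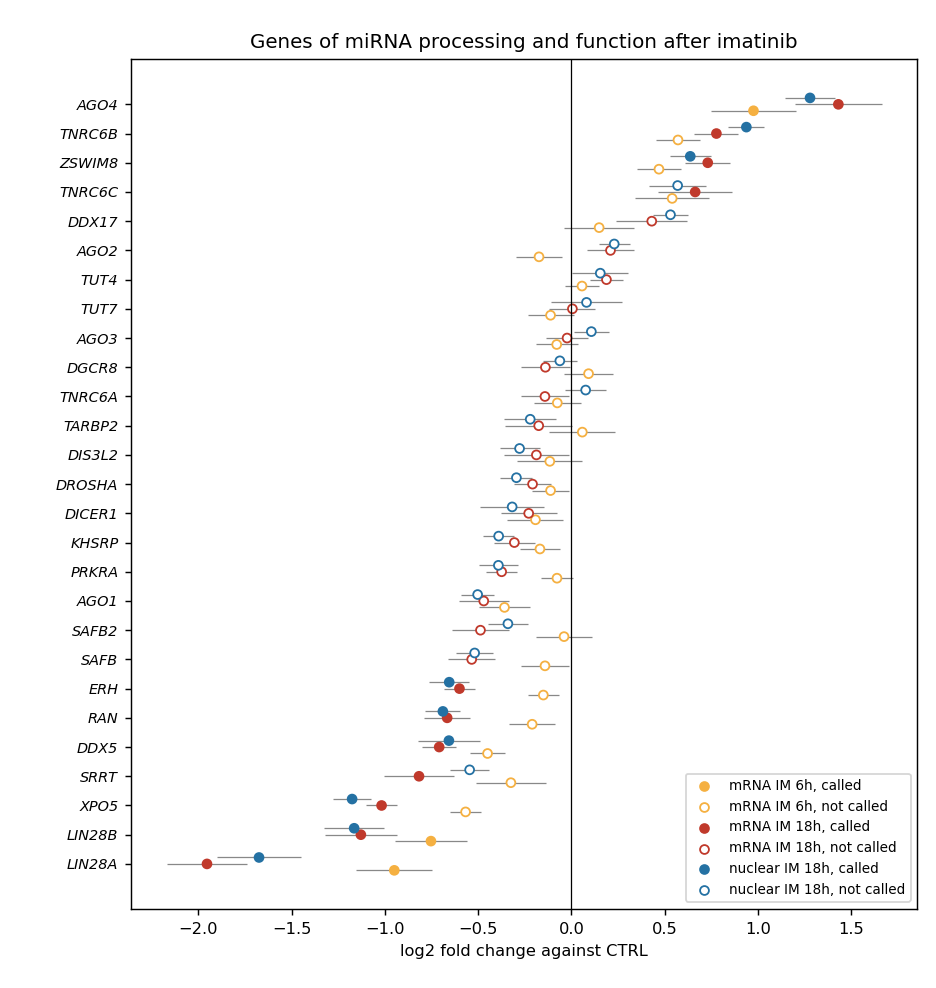
Log2 fold changes against CTRL of the 27 microRNA biogenesis genes after imatinib for 6 h and 18 h in polyadenylated RNA and for 18 h in nuclear RNA (by colour), with bars of 1 SE and filled points where the change was called. After 18 h of imatinib LIN28A, LIN28B and XPO5 lie furthest below 0 and AGO4 furthest above 0.

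Some of the seeds printed above are also made from other hosts. The AAAGUGC and AUUGCAC seeds are shared with miR-93, miR-106b and miR-25, which lie in introns of MCM7, a subunit of the replicative helicase. MCM7 stood at 660 ± 34.7 CPM in CTRL and 652 ± 39.0 CPM after 18 h of imatinib in polyadenylated RNA (log2 fold change -0.05, adjusted p = 0.643, edgeR), while MIR17HG fell in the same libraries. The AGCAGCA seed of miR-15a and miR-16 is also carried by miR-15b and miR-16-2 in SMC4, a condensin subunit, which had 362 ± 55.8 CPM in CTRL and 532 ± 35.3 CPM after 18 h (0.52, adjusted p = 0.00525, edgeR), below the fold threshold. Other hosts rose. TMEM245, the host of miR-32 with the seed AUUGCAC, rose at 6 h (0.63, adjusted p = 0.000199, edgeR) and at 18 h (0.70, adjusted p = 1.22e-05, edgeR) of imatinib in polyadenylated RNA. Its 6 h value was under the fold threshold without CTRL replicate 3 (0.56), IM 6 h replicate 2 (0.56) or replicate 3 (0.597). POLM, the host of miR-6838 with the seed AGCAGCA, rose at 6 h (0.78, adjusted p = 0.0162, edgeR) and at 18 h (0.71, adjusted p = 0.0114, edgeR) and fell at 6 h of JTE-607 (-1.41, adjusted p = 0.000195, edgeR), all in polyadenylated RNA. In nuclear RNA at 18 h of imatinib neither passed the fold threshold (TMEM245 0.462, adjusted p = 0.000364, and POLM 0.457, adjusted p = 0.0251, edgeR). POLM was called lower in nuclear RNA at 1 h of JTE-607 (-0.605, adjusted p = 0.0228, edgeR), and fell under the fold threshold by DESeq2 (-0.597). The imatinib calls of POLM were lost without the filter (adjusted p = 0.0638 at 6 h and 0.0851 at 18 h), the one at 6 h also when replicate 1 (0.0668) or 2 (0.0637) of CTRL, or the first library of IM 6 h (0.054), was left out, and the one at 18 h without IM 18 h replicate 3 (0.0788). The differences between these genes and their seed partners were not tested.

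Of 18 protein-coding genes that host intronic microRNAs, 1 was among the 10 genes called in nuclear RNA at 1 h of imatinib (69 genes with the replicate number as a block). It was EGFL7, the host of miR-126 and a secreted endothelial factor, at 87.0 ± 7.82 CPM in CTRL and 49.3 ± 6.32 CPM at 1 h (log2 fold change -0.76, SE 0.13, adjusted p = 0.0323, edgeR). That call at 1 h kept its direction and was lost without CTRL replicate 1 (adjusted p = 0.0754) or 2 (0.265) and without IM 1 h replicate 1 (0.0759), 2 (0.0757) or 3 (0.307). The nuclear libraries of the other 1 h treatments also lay below the same CTRL libraries, at 56.9 ± 8.23 CPM under JTE-607 (-0.62, adjusted p = 0.00396, edgeR, close to the fold threshold and under it without CTRL replicate 2 or JTE 1 h replicate 3) and 57.8 ± 6.62 CPM under potassium chloride. EGFL7 stood at 33.0 ± 4.56 CPM at 18 h (-1.47, adjusted p = 5.21e-08, edgeR). In polyadenylated RNA it fell at 6 h (-1.06, adjusted p = 0.00742, edgeR) and at 18 h (-1.26, adjusted p = 0.000538, edgeR). CTDSP1, a phosphatase gene and the host of miR-26b, fell at 6 h of JTE-607 from 56.5 ± 7.06 to 19.4 ± 4.85 CPM (-1.46, adjusted p = 8.98e-07, edgeR) and stood at 48.1 ± 1.69 CPM at 18 h, above the 6 h level (18 h against 6 h 1.16, adjusted p = 2.94e-05, edgeR). The 1 h nuclear call is 5.56% of the 18 genes, beside 0.0456% of all genes. In the other comparisons with CTRL the shares were lower than over all genes. At 18 h of imatinib 3 of 18 were called in polyadenylated RNA (16.7%, beside 30.5%) and 2 in nuclear RNA (11.1%, beside 32.6%). At 6 h it was 1 for imatinib (5.56%, beside 9.94%) and 2 for JTE-607 (11.1%, beside 13.2%). Potassium chloride called 0 in either fraction. EGFL7 and CTDSP1 are named because the changes reached a log2 fold change of 1.

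Counting without strand could matter where genes lie beside or over the hosts, since pairs from both strands of an exon are counted together. Only DLEU2 shares exon bases with genes other than its hairpins (919 shared bases, with 13 hairpin bases in exons). In the other hosts any shared exon bases are those of the hairpins. There, only pairs from outside a neighbour's annotated exons could be added to the host's count, and this was not tested. VSIG4, 1315 bases from MIR223HG on the opposite strand, fell with it after 18 h of imatinib in nuclear RNA, from 12.3 ± 1.36 to 1.91 ± 0.887 CPM (log2 fold change -2.79, adjusted p = 7.02e-05, edgeR). At JTE 1 h VSIG4 stood at 25.3 ± 5.77 CPM (1.04, adjusted p = 0.0646, edgeR), where MIR223HG had 65.0 to 142 CPM. WDR81, which overlaps MIR22HG on the opposite strand, rose where MIR22HG fell, from 16.1 ± 2.45 to 31.4 ± 2.04 CPM in polyadenylated RNA at 18 h of imatinib (0.93, adjusted p = 0.000357, edgeR) and by 0.69 in nuclear RNA (adjusted p = 9.15e-05, edgeR). TLCD2, 1054 bases from MIR22HG on the same strand and named after its values were seen, rose in nuclear RNA at 18 h of imatinib (1.06, adjusted p = 0.00116, edgeR). In polyadenylated RNA TLCD2 was not called (0.75, adjusted p = 0.315, edgeR). RASSF7, 1638 bases from MIR210HG, was not called at 18 h of imatinib and fell at 6 h of JTE-607 (-1.19). PHRF1, 8028 bases from MIR210HG, lay below CTRL at 18 h of imatinib, within the fold threshold. Its log2 fold changes were -0.39 (adjusted p = 0.0468, edgeR) in polyadenylated RNA and -0.47 (adjusted p = 0.00146, edgeR) in nuclear RNA. LMNTD2, 4880 bases from MIR210HG on the same strand and named after its values were seen, had 0.545 CPM in polyadenylated and 1.55 CPM in nuclear CTRL. It rose with MIR210HG at 18 h of imatinib in polyadenylated RNA (1.82, adjusted p = 0.000702, edgeR) and in nuclear RNA (1.55, adjusted p = 0.000192, edgeR). Its antisense gene LMNTD2-AS1, at 0.180 and 0.607 CPM in CTRL, rose in nuclear RNA (1.42, adjusted p = 0.000947, edgeR). In polyadenylated RNA LMNTD2-AS1 was not called (1.54, adjusted p = 0.0773, edgeR). It lies within LMNTD2 on the other strand, so with counting without strand these rises may not be separate. TRIM13, which overlaps DLEU2 on the opposite strand, fell at 3 h of potassium chloride (-0.86). DLEU1, which starts within DLEU2 and runs the other way, so that the genes overlap, rose at 6 h of JTE-607 (0.77, with an edgeR adjusted p of 0.0664 without CTRL replicate 3).

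Patterns over the 14 group means, taken as log2(CPM + 0.5) centred within each fraction, were compared with those of 12143 other genes (12144 for MIR210HG) as a description. The groups share CTRL and depth within a fraction. MIR17HG was most like SNHG8 (Pearson's r = 0.890), NOL12 (0.883) and C20orf203 (0.859). MIR223HG was most like LINC01311 (0.953), MAP3K14 (0.9395) and TSACC (0.930), and MIR22HG most like TUBB4B (0.960), PGD (0.9398) and ALAS1 (0.930). The nearest to MIR210HG were EIF5AP2 (0.984), TRMT61A-DT (0.982) and OSBPL5 (0.981), and ULK4 (0.864) and STRIP2 (0.841) were among the nearest to DLEU2. Among the hosts themselves MIR17HG and MIR223HG had r = 0.758, and MIR22HG and MIR210HG had r = -0.748.

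In RefSeq promoter windows of 300 bases, 250 before and 50 after the start, 6 of the 7 hosts were found and MIR223HG was not. The STAT motif TTCNNNGAA had 1 match in MIR155HG and the E-box CACGTG 1 match at the first of the 2 starts of DLEU2. The GATA motif AGATAA, searched on both strands as the others were, had none. Of 35116 promoters, 7.66% held the STAT motif, 7.26% the E-box and 10.3% the GATA motif.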

How the data were processed

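Polyadenylated RNA (27 libraries) and ribosome-depleted nuclear RNA (15 libraries) of K562 cells were analysed from 2 tables of raw counts deposited by the authors. Per the study's methods, reads were trimmed and deduplicated with fastp and aligned to hg38 with STAR, keeping unique alignments and introns of at most 10000 bases, and read pairs over exons were counted per gene with featureCounts. The kits keep strand but no strand option is given for the counting, so antisense pairs may be included. The annotation release is not given in the sources used here. Exon lengths (the tables' other numeric column, deposited per gene) were used only for CPM per kb. Symbols came from the reference name table, which held 57532 of the 58243 identifiers.

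The 7 members, the gene lists and the rules below were chosen with earlier results of these data known. Counts were analysed in R 4.3.3 with edgeR 4.0.16 (TMM, filterByExpr, glmQLFit robust, glmQLFTest), 1 fit per fraction with 1 term per group, over 18095 genes in polyadenylated and 21929 in nuclear RNA. The SE was derived from the log2 fold change and its quasi-likelihood F. CPM used the library totals, so CPM ratios and fitted fold changes differ slightly. CPM values are mean ± SD of 3 libraries. Alternatives were DESeq2 1.42.0, its size factors within edgeR, counts thinned to 1 depth, no filter, no fold threshold, only the groups compared, the replicate number as a block, and leaving out each library. The fit was tested on simulated data. Totals were at least 16175394 pairs, and floors of 3 counts cover counting error only. Replicates differed beyond sampling noise in each group (chi-square per degree of freedom 8.11 to 44.6).

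Replicate numbers come from the sample titles. The deviations of same-numbered libraries correlated with r from 0.234 to 0.891 in nuclear RNA, so all 4 treatments pair with CTRL there. In polyadenylated RNA r ran from -0.367 to 0.877, and 2 of 12 pairs of groups paired, JTE 18 h with JTE 6 h and IM 6 h with JTE 6 h. The deposited columns number the polyadenylated CTRL libraries 1 and 2 the other way round from the library sizes in the study's supplement. With both numbers exchanged, r ran from 0.0545 to 0.877 and 7 of 8 treatments paired with CTRL, all but JTE 18 h, so a block with exchanged numbers was added after seeing the data.

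All 7 members are named. Other host genes are named for the 2 largest called rises and 2 largest called falls per contrast with CTRL among genes of at least 1 CPM in the higher group, biogenesis genes where called, protein-coding hosts where called with an absolute log2 fold change of at least 1, and the 3 genes most like each member in pattern. One gene that this rule names is not reported here. Neighbours lie within 10000 bases. Hosts sharing a seed were found by matching seeds in RefSeq.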

Additional observations from a re-analysis of the deposited data

Results flagged for a closer look

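MIRLET7IHG, a let-7 host, moved in opposite directions in the 2 fractions after 1 h of potassium chloride. In polyadenylated RNA every treated library lay below every CTRL library (1.90 ± 0.394 against 3.36 ± 0.666 CPM, SD, n = 3), with a fitted log2 fold change of -0.77 (adjusted p = 0.0475, edgeR). It was not called with 1 library left out in 5 of 6 cases (adjusted p from 0.0764 to 0.251). The call was also lost with the size factors of DESeq2 within edgeR (0.051), with thinned counts (0.0747), without the filter (0.126) and in a fit of the 2 groups (0.210). In nuclear RNA every treated library lay above CTRL (15.9 ± 3.66 against 5.39 ± 1.11 CPM), with a log2 fold change of 1.58. The difference between the fractions was not tested.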

How the results depend on the processing

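The 17 calls of the 7 hosts include that of MIR155HG in nuclear RNA at JTE 1 h, which was set aside above as a description. Of these 17 calls, 11 held under every alternative, and that of MIR155HG was not among them. Leaving out a library kept 85 of 102 values and lost 17, the other alternatives kept 126 of 126, and no direction reversed. Dropping the fold threshold is counted among those other alternatives and cannot end a call, so its values were kept by construction. Of comparisons not called, 395 of 396 stayed so with a library left out and 374 of 396 otherwise. Host calls rose from 1 to 2 at JTE 6 h (no filter, replicate block as numbered or with CTRL 1 and 2 exchanged, only the 2 groups), from 0 at JTE 18 h to 1 (DESeq2, replicate block as numbered or exchanged, 2 groups) or 2 (no filter), from 0 for IM 18 h against 6 h to 1 (DESeq2, 2 groups), 2 (replicate block) or 3 (no filter), and from 0 to 1 for JTE 18 h against 6 h (no filter). Where the numbers as deposited pair the libraries, the replicate block changed no call of a host. With CTRL 1 and 2 exchanged, which pairs 7 of 8 treatments with CTRL, it added MIR223HG at JTE 6 h, where the numbers then pair, and MIR17HG at JTE 18 h, where they do not, and ended no call of a host. Over all genes that block raised the calls from 3 to 5 at IM 1 h, from 154 to 280 at JTE 1 h and from 975 to 1575 at JTE 18 h. In nuclear RNA, where the deposited numbers pair all 4 treatments with CTRL, the main fit does not use that pairing. There the replicate block raised the calls over all genes from 10 to 69 at IM 1 h and from 7152 to 7638 at IM 18 h. At JTE 1 h they went from 1868 to 2514 and at KCl 1 h from 5227 to 5683. The cause of these moves was not tested. Leaving out 1 library gave 0 to 3 host calls at IM 6 h (0 without CTRL replicate 3), 1 to 2 for IM against JTE 6 h, and 0 to 2 for nuclear JTE 1 h (0 without JTE 1 h replicate 1). The counts for nuclear JTE 1 h include MIR155HG where it was called. For the other host genes, calls went from 0 to 1 at JTE 1 h (no filter), from 5 to 2 at KCl 1 h (2 groups) and from 0 to 1 at nuclear IM 1 h (DESeq2, replicate block), and leaving out a library gave 1 to 3 at IM 6 h, 0 to 2 at JTE 18 h and 3 to 5 at nuclear JTE 1 h. For biogenesis genes, calls without the fold threshold went from 3 to 7 at IM 6 h, 0 to 1 at JTE 6 h, 0 to 2 at JTE 18 h, 0 to 1 at KCl 1 h, 2 to 6 at KCl 3 h, 9 to 20 at nuclear IM 18 h, 0 to 1 at nuclear JTE 1 h and 3 to 5 at nuclear KCl 1 h, and leaving out a library gave 2 to 5 at IM 6 h, 0 to 1 at JTE 18 h and 0 to 1 at KCl 1 h. The 8 untested fold changes of MIR17HG and MIR223HG moved by less than their spread in 102 of 102 alternatives, but that spread is wide for MIR223HG, whose polyadenylated JTE 1 h value ran from -2.01 to -0.075 with 1 library left out. With 3 libraries per group and few counts, changes of MIR155HG and MIR181A1HG in polyadenylated RNA were not detectable at this depth.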

Other observations

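KCNT2, a potassium channel gene, was found by matching seeds in RefSeq as the host of hsa-miR-4735-3p, which shares the seed AAGGUGC with miR-18a, and is named after its values were seen. It rose after 18 h of imatinib in polyadenylated RNA (log2 fold change 2.88, SE 0.53, adjusted p = 0.000129, edgeR) and in nuclear RNA (3.77, SE 0.38, adjusted p = 3.01e-07, edgeR). At 6 h the value in polyadenylated RNA was 1.37 (SE 0.55, adjusted p = 0.0943, edgeR). KCNT2 was low in CTRL, at 0.6097 ± 0.4186 CPM in polyadenylated RNA and 0.5774 ± 0.3002 CPM in nuclear RNA. These means lie close to the filter's 0.524 and 0.478 CPM. After 18 h of imatinib the means were 4.643 ± 1.727 and 8.375 ± 3.854 CPM. Which groups let KCNT2 pass the filter was not examined, so its fold changes and adjusted p values are a description.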
